A study of Mus musculus with 32 samples.

Results

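CD11c+ and CD206+ adipose tissue macrophages of mice lacking A20 in myeloid cells (KO) on a high-fat diet (HFD) were compared across all genes, to describe which differences between the populations hold without A20. Libraries were chosen by their labels: the 4 CD11c+ and the 4 CD206+ libraries of KO on HFD, 8 of the 32 in the series. The series crosses genotype (KO or wild type, WT), diet (HFD or standard diet, SD) and population, with 4 libraries in each of 8 groups. All mice were C57BL/6J, had 12 weeks on their diet, and gave macrophages from the epididymal fat by flow sorting. The CD11c+ cells were sorted as CD206 low and CD11c high, and the CD206+ cells as CD206 high and CD11c low. The same comparison in WT on HFD and in KO on SD, each with 4 libraries a population, was set beside it, and these 3 comparisons share no library. The Cre driver behind the myeloid knockout is not named in the labels. Nothing in the labels ties a library to its own mouse, and p-values therefore reflect only how these libraries spread, which may be technical.

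The A20 protein (gene Tnfaip3) edits ubiquitin chains and so limits NF-kB activity after cytokine and pattern recognition receptors are engaged. CD206 is a mannose receptor carried by resident, perivascular macrophages of fat, which take up debris, iron and lipid. CD11c, an integrin chain, marks macrophages that gather around dying fat cells in obesity, and it is also carried by dendritic cells, so a CD11c gate can hold both.

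Total gene counts ran from 19318600 to 21949200 in the 8 libraries and from 17619600 to 23832900 across all 32. Reads outside genes were 5.98% to 7.75% of all reads in the table in CD11c+ and 8.20% to 9.66% in CD206+ libraries of KO on HFD, and ambiguous reads 1.38% to 1.45% against 1.23% to 1.33%. Both shares separated the populations without overlap, and their part in the results was not tested. Levels below are counts scaled to a library total of 1000000 (CPM) with TMM scaling. Log2 fold changes are CD11c+ over CD206+ with their standard error (SE) from edgeR's quasi-likelihood fit, and a gene is called at an adjusted p under 0.05. In bulk samples, fewer cells of a type and less RNA per cell cannot be told apart.

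Tnfaip3 was the check of the labels. In KO on HFD it stood at 281, 203, 178 and 353 CPM in CD11c+ libraries 1 to 4 and at 183, 219, 167 and 285 CPM in CD206+ libraries. In WT on HFD it stood at 803, 641, 615 and 712 CPM in CD11c+ and at 894, 691, 715 and 804 CPM in CD206+. Each KO library lay below each WT library, and the 2 KO populations overlapped (log2 fold change 0.25 ± 0.20, adjusted p = 0.303). The tables count the whole gene, so reads from any part that the deletion leaves are included. Without CD11c+ libraries 2 and 3 the KO population difference in Tnfaip3 was called, at 0.58 (adjusted p = 0.0342).

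The sort genes followed the gates. Itgax, which encodes CD11c, was at 211, 173, 146 and 253 CPM in CD11c+ libraries and at 3.64, 4.17, 1.62 and 4.22 CPM in CD206+ libraries of KO. All CD11c+ libraries were higher, and the log2 fold change was 5.85 ± 0.37 (adjusted p = 1.56e-12). In WT the CD206+ libraries held 20.7, 50.3, 29.5 and 37 CPM of Itgax, each above every KO CD206+ library, and the fold change was smaller, 3.22 ± 0.31 (interaction 2.63 ± 0.44, adjusted p = 0.000844). Mrc1, which encodes CD206, was at 695, 631, 532 and 656 CPM in CD11c+ and at 1570, 1550, 1330 and 1460 CPM in CD206+ KO libraries. Its log2 fold change of -1.23 ± 0.12 lay beside -1.20 ± 0.12 in WT. Lyz2, a lysozyme gene of myeloid cells, was high in both KO populations, from 8110 to 14600 CPM, and was not called (0.20 ± 0.13).

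Of 13453 genes tested in KO on HFD, 6167 were called (45.8%), 3136 higher (23.3%) and 3031 lower (22.5%) in CD11c+ cells. Of the called genes, 738 were higher and 1287 lower by more than 2-fold. The 4 and 4 libraries did not overlap for 5098 genes (37.9%), 2663 higher (19.8%) and 2435 lower (18.1%). A first principal component of the 8 libraries held 59.1% of the variance and separated the populations, and the second held 12.3% and set CD11c+ libraries 2 and 3 apart from 1 and 4. Without libraries 2 and 3, 2638 genes were called higher and 2148 lower, and 70.4% of the 6167 genes kept their call. Those libraries were left out after their summed resident macrophage levels were seen.

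**Figure D1:**
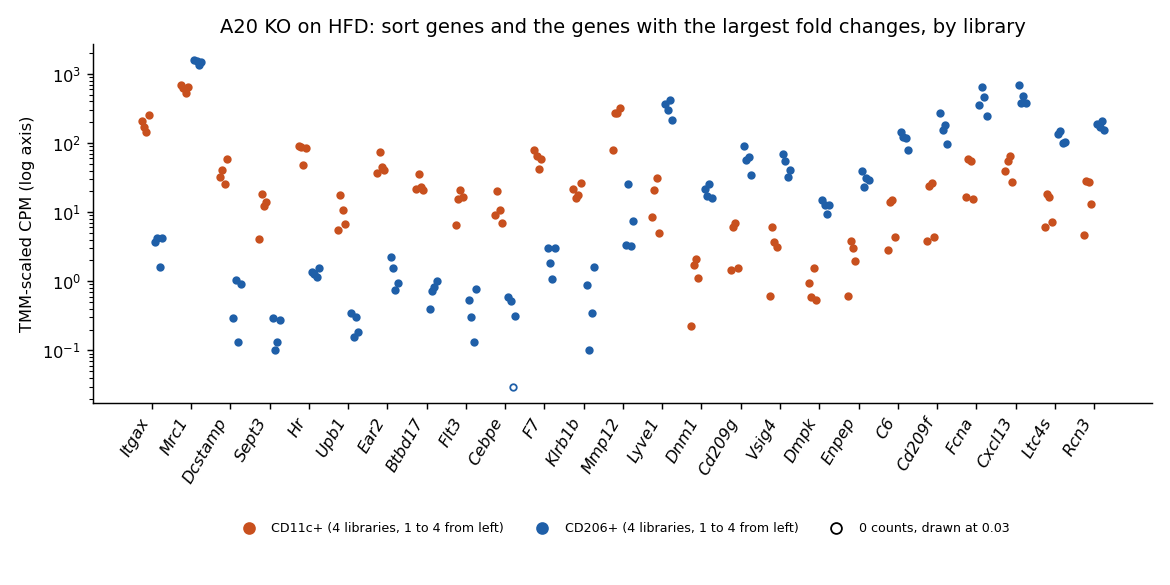
Levels of the sort genes Itgax and Mrc1 and of the genes with the largest fold changes in KO on HFD, in TMM-scaled CPM on a log axis, with 1 point for each of the 4 CD11c+ (orange) and 4 CD206+ (blue) libraries. The open point is a library with 0 counts. For each gene drawn, the libraries of the 2 populations do not overlap, which was a condition for picking the genes with the largest fold changes.

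The genes furthest higher in CD11c+ KO cells included Dcstamp (fusion), Mmp12 (matrix), F7 (coagulation) and Flt3 (dendritic cells). Leading genes in either direction were named only where the libraries of the 2 populations did not overlap. Dcstamp, a membrane protein needed for fusion of osteoclasts and giant cells, was at 32.3, 40.8, 25.8 and 59.1 CPM in CD11c+ and at 0.295, 1.03, 0.131 and 0.908 CPM in CD206+ libraries. Every CD11c+ library was above every CD206+ library, with a log2 fold change of 6.07 ± 0.35 (adjusted p = 4.14e-13). Mmp12, the macrophage elastase, stood at 78.6, 271, 275 and 318 CPM against 3.34, 25.2, 3.28 and 7.54 CPM (4.60 ± 0.59). CD11c+ library 1 was the lowest of its group for Mmp12, and CD206+ library 2 the highest of its own.

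F7 and F10, which encode coagulation factors VII and X, were both higher, F10 being named from the complement list and not as a leading gene. F7 held 79.7, 64.8, 41.8 and 59.5 CPM in CD11c+ and 3, 1.85, 1.09 and 3.04 CPM in CD206+ libraries (log2 fold change 4.77 ± 0.42). F10 held 215, 98.2, 76.4 and 154 CPM against 14.8, 7.57, 7.47 and 15.8 CPM (3.57 ± 0.40). Neither gene overlapped between the populations, and both were called in WT on HFD, at 3.41 and 2.54. Hr, a nuclear corepressor, was 5.85 ± 0.37 higher, and Ear2, an eosinophil-associated ribonuclease with near-identical copies, 5.17 ± 0.39 higher. Cebpe, a transcription factor of granulocyte maturation (5.05 ± 0.53), Upb1, an enzyme of pyrimidine breakdown (5.33 ± 0.54), Btbd17 (5.09 ± 0.32), the septin gene Sept3 (5.87 ± 0.77) and the lectin-like receptor gene Klrb1b (4.76 ± 0.53) were also among the leading genes.

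The genes furthest lower in CD11c+ KO cells were led by receptors of resident macrophages. Lyve1, the hyaluronan receptor of perivascular macrophages, was at 8.4, 20.7, 31.5 and 5.05 CPM in CD11c+ and at 365, 304, 425 and 216 CPM in CD206+ libraries. The groups did not overlap, and CD11c+ libraries 2 and 3 held more than 1 and 4 (log2 fold change -4.32 ± 0.50, adjusted p = 8.73e-08). Cd209g and Cd209f, C-type lectins of a family with near-identical copies, were at -3.92 ± 0.46 and -3.59 ± 0.50. Vsig4, the complement receptor of the immunoglobulin family, was at -3.86 ± 0.44, the lectin ficolin A gene Fcna at -3.55 ± 0.44 and C6, of the terminal complement pathway, at -3.67 ± 0.41.

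Cxcl13, a B cell attracting chemokine, held 39.2, 55.5, 65.3 and 27.5 CPM in CD11c+ and 699, 374, 472 and 385 CPM in CD206+ libraries (log2 fold change -3.36 ± 0.50). Ltc4s, the leukotriene C4 synthase gene, held 6.01, 18.2, 16.6 and 7.1 CPM against 134, 149, 100 and 105 CPM (-3.35 ± 0.32). Both genes were without overlap. Enpep, a peptidase of the angiotensin system (-3.70 ± 0.39), Dnm1, a dynamin (-3.95 ± 0.37), the kinase gene Dmpk (-3.76 ± 0.55) and the calcium-binding protein gene Rcn3 (-3.30 ± 0.35) complete the leading genes.

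Of 32 resident and alternatively activated macrophage genes tested, 27 were lower and 2 higher in CD11c+ KO cells, against 22.5% and 23.3% of all genes, with a median log2 fold change of -2.29 beside -0.05 for all genes tested. In WT on HFD 25 were lower and none higher, where 8.7% of all genes were lower and 11.7% higher. The members that were higher, named after their values were seen, were Retnla, a secreted product of IL-4 signalling (1.17 in KO, adjusted p = 0.022), and Fcrls, an Fc receptor-like gene (1.13, adjusted p = 0.000743). Without CD11c+ library 2 or CD206+ library 2, 3 or 4, 1 member was higher. The summed level of the list was 6917, 17180, 12990 and 8172 CPM in CD11c+ and 29540, 25680, 28920 and 23240 CPM in CD206+ libraries. CD11c+ libraries 2 and 3 were the highest of their group, and without them 27 members were still lower and 1 higher.

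**Figure D2:**
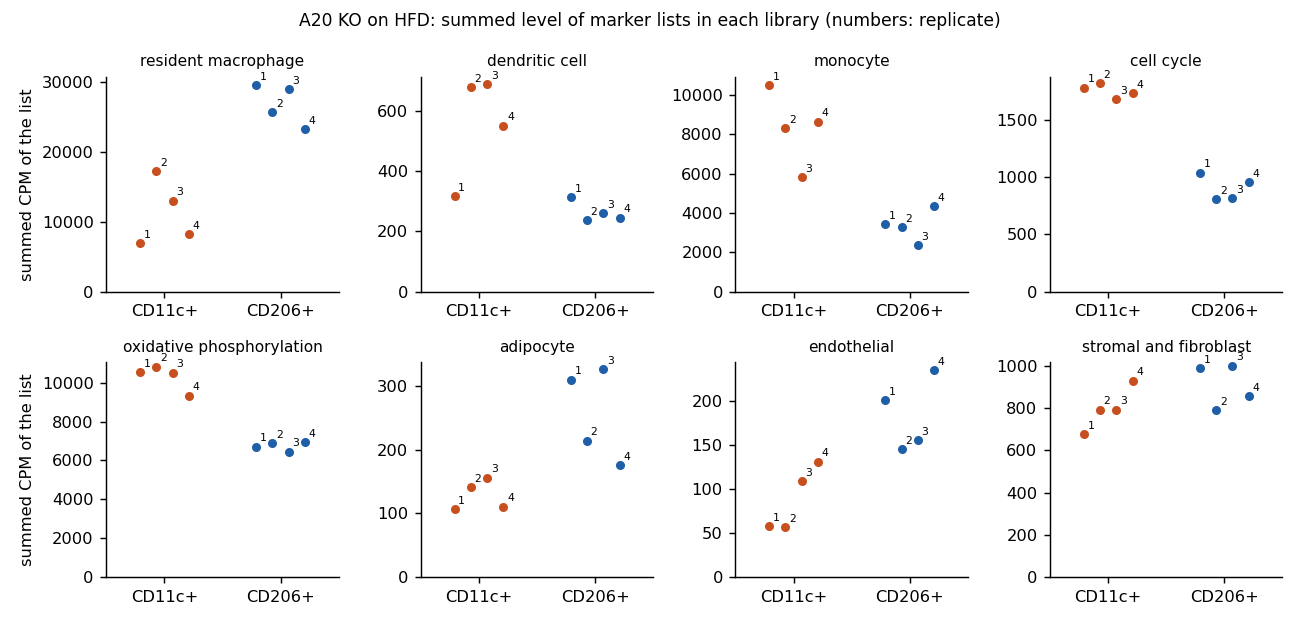
Summed CPM of 8 gene lists in each KO library on HFD, with the replicate number beside each point (CD11c+ orange, CD206+ blue, axes from 0). Resident macrophage sums are lower and cell cycle and oxidative phosphorylation sums higher in all 4 CD11c+ libraries, while the stromal sums of the populations overlap.

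Scavenger and complement genes followed. Among 40 phagocytic, scavenger and lectin receptors 15 were lower and 5 higher. Among 25 complement and acute phase genes 13 were lower and 5 higher (3 higher without CD11c+ library 1 or CD206+ library 3 or 4). These and all later list counts stand beside 23.3% of all genes higher and 22.5% lower in KO. In WT on HFD those shares were 11.7% and 8.7%. The complement genes that were higher were close to their share. Cd163, the haemoglobin scavenger receptor, was at 12.7, 50.2, 47.3 and 19 CPM in CD11c+ and at 267, 183, 354 and 138 CPM in CD206+ libraries (log2 fold change -2.86 ± 0.34). C4b was at 68.3, 275, 246 and 106 CPM against 1410, 1250, 1740 and 934 CPM (-2.94 ± 0.43). Neither gene overlapped between populations. Tlr5, the flagellin receptor (-3.05 ± 0.38), Marco (-2.80 ± 0.60) and Stab1 (-2.40 ± 0.25), both scavenger receptors, and Cd55, a complement decay factor (-3.16 ± 0.38), were lower as well.

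Lipid-associated macrophage genes, a program of macrophages that clear dying fat cells, were mostly higher in CD11c+ KO cells: 20 of 32 were higher and 2 lower (median 0.93), against 25 higher and none lower in WT on HFD (median 0.97). The summed level of the list overlapped between the KO populations (31190 to 34190 CPM in CD11c+, 31440 to 39350 CPM in CD206+) and did not in WT (66310 to 72620 CPM against 44890 to 50280 CPM). Apoe, a lower member described below, made up a far larger part of the CD206+ than of the CD11c+ KO sums. The overlap in KO therefore does not describe the other members. Without CD11c+ library 1, 1 member was lower. Gpnmb, a lysosomal glycoprotein of that program, held 123, 258, 380 and 242 CPM in CD11c+ and 8.35, 63.5, 9.44 and 11.9 CPM in CD206+ KO libraries (log2 fold change 3.43 ± 0.57). In WT it held 2240, 2120, 1780 and 3100 CPM against 347, 932, 536 and 739 CPM (1.86 ± 0.52). Every WT CD11c+ library was above every KO CD11c+ library for Gpnmb, while the interaction was not called (1.58 ± 0.73, adjusted p = 0.238). Spp1, osteopontin (3.16 ± 0.53), and the cathepsin K gene Ctsk (2.97 ± 0.53) were higher too.

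Apoe, an apolipoprotein of lipid export, went the other way in KO. It stood at 2440, 3150, 3860 and 3360 CPM in CD11c+ and at 12700, 15000, 11500 and 11800 CPM in CD206+ KO libraries, without overlap. The log2 fold change was -1.99 ± 0.20 in KO (adjusted p = 4.86e-09) and -0.46 ± 0.19 in WT (adjusted p = 0.0824), with an interaction of -1.53 ± 0.27 (adjusted p = 0.00126). In WT, CD11c+ libraries held 10400, 10500, 11500 and 8300 CPM. The other lower member was Fabp4, a fatty acid binding protein (-1.01 in KO, adjusted p = 0.0113), named after its values were seen. Fabp5, its relative, was higher at 2.67 ± 0.25 in KO and at 1.21 in WT, with a called interaction (1.46, adjusted p = 0.0112). In the cholesterol efflux list 8 of 20 were higher and 7 lower, the lower ones including the oxysterol enzymes Ch25h (-2.38 ± 0.37) and Cyp27a1 (-1.47 ± 0.18) and the LXR target Mylip (-1.36 ± 0.13).

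Lysosomal genes were split, with 23 of 67 higher and 9 lower in KO and 29 higher and 2 lower in WT. Gm2a, the GM2 ganglioside activator, was at 1400, 1550, 1300 and 1310 CPM in CD11c+ and at 423, 386, 340 and 440 CPM in CD206+ KO libraries. The groups did not overlap, and the log2 fold change of 1.81 ± 0.12 was larger than in WT (0.88, interaction adjusted p = 0.00163). The acid phosphatase gene Acp5 (1.87 ± 0.20) and the proton pump subunit Atp6v0d2 (2.46 ± 0.35) were also higher. Without CD11c+ libraries 2 and 3, 5 lysosomal members were lower and 21 higher. Of 31 fatty acid uptake and lipid storage genes 8 were higher and 7 lower in KO, close to the 23.3% and 22.5% of all genes, and 9 were higher and none lower in WT, beside 11.7% and 8.7% of all genes.

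**Figure D3:**
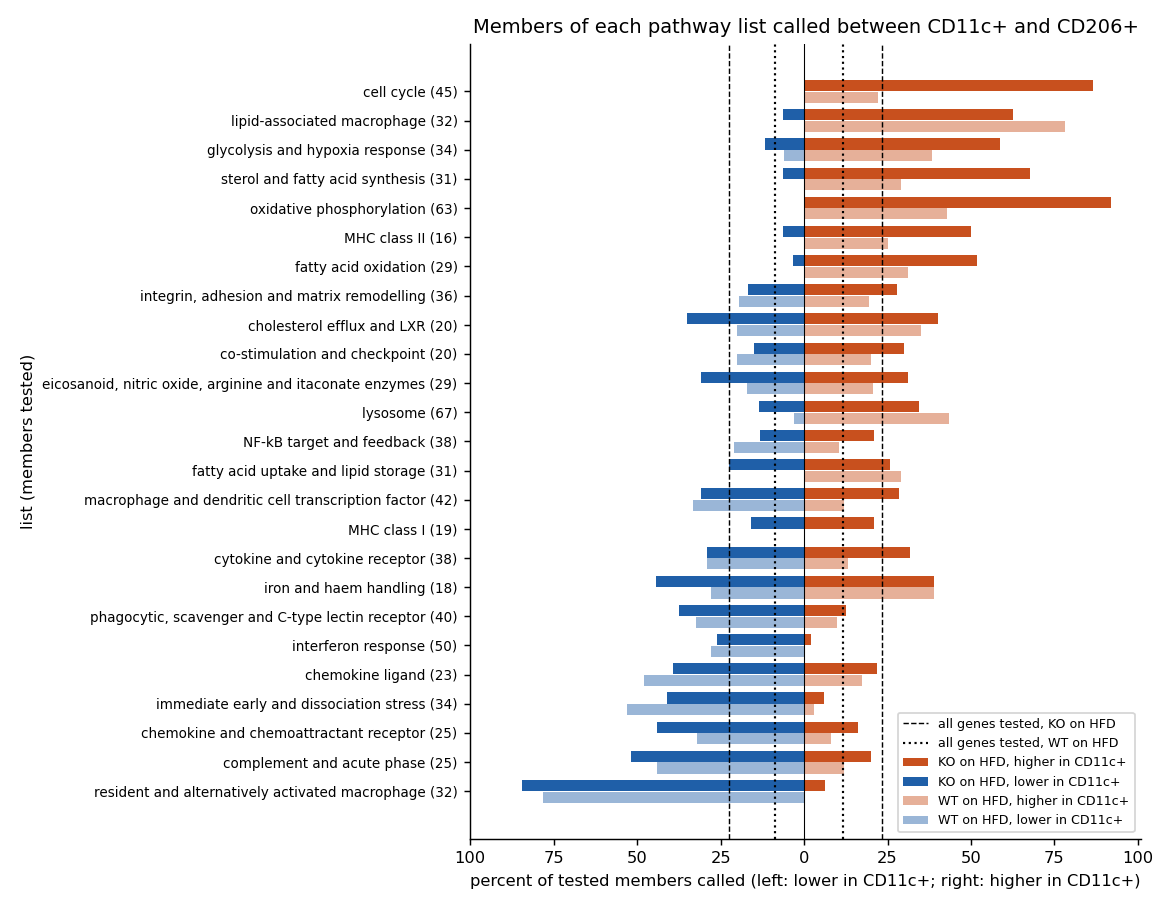
Percent of the tested members of each pathway list that were called higher (right) or lower (left) in CD11c+ cells, in KO (dark) and WT (light) on HFD, with the members tested in brackets. Dashed lines mark the 23.3% and 22.5% of all genes called higher and lower in KO and dotted lines the 11.7% and 8.7% in WT, and the KO bars of cell cycle and oxidative phosphorylation reach furthest past them on the right.

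Cell cycle genes were higher in CD11c+ KO cells for 39 of 45 members tested and lower for none (median log2 fold change 1.21), against 10 higher and none lower in WT on HFD (median 0.47). Of all genes, 23.3% were higher in KO and 11.7% in WT. Rrm2, the regulated subunit of ribonucleotide reductase, held 73.6, 76.8, 74.9 and 54.1 CPM in CD11c+ and 18.4, 12.5, 12.5 and 17 CPM in CD206+ KO libraries. Levels did not overlap (2.21 ± 0.24, adjusted p = 3.13e-08). Its interaction was called, at 1.48 ± 0.33 (adjusted p = 0.01). Ube2c, the ubiquitin-conjugating enzyme that works with the anaphase-promoting complex (1.88 ± 0.25), and cyclin A2, Ccna2 (1.81 ± 0.20), were also among the 7 members with a called larger value in KO. No member had a called smaller one. Of all genes tested, 2.16% had a called larger value and 2.2% a smaller one, so having no smaller member was close to the share of all genes. Mki67, a proliferation marker that was named after its values were seen, was not called (0.31, adjusted p = 0.421).

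The 4 called cell cycle members with the largest fold change that the RefSeq table (GRCm38.p6) holds were taken, outside a chromosome that was left out. Their promoters are shown, to set the sequence of members that were higher together beside their values. Each runs from 250 bases before to 50 after the start, 5′ to 3′ on the gene's strand. Capitals mark CCAAT (the CCAAT box) and TTTGAA (the cell cycle homology region, CHR) on either strand, and no CCAAT match overlaps a TTTGAA match here, while 2 CCAAT matches of Ube2c overlap each other. The motifs and the rule for these 4 genes were chosen after the list's counts were seen.
Rrm2: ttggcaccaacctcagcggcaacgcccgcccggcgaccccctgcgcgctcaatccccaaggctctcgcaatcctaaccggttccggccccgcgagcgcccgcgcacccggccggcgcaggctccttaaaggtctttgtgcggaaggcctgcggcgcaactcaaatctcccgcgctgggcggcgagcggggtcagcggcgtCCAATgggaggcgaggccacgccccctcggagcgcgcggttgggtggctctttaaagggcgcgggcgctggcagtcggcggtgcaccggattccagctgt
Ung: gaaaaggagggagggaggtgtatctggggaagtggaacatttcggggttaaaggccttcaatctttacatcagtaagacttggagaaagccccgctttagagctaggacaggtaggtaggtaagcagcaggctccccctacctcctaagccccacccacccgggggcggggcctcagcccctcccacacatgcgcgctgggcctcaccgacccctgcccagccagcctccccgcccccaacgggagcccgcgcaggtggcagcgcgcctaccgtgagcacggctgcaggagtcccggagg
Ube2c: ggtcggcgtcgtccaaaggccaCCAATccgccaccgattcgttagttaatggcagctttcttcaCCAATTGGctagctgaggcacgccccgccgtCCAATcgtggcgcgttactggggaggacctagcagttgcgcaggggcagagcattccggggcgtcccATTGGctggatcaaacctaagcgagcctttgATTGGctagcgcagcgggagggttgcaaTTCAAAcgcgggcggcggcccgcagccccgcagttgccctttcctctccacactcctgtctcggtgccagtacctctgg
Ccnb1: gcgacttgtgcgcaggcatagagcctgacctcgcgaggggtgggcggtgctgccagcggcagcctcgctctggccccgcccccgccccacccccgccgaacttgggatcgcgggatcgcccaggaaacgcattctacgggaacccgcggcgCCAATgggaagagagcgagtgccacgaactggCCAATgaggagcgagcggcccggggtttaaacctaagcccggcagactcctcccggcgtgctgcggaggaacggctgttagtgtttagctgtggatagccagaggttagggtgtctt

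These lie at chr12:24708004-24708303 (Rrm2, plus strand), chr5:114130185-114130484 (Ung, plus), chr2:164769679-164769978 (Ube2c, plus) and chr13:100786437-100786736 (Ccnb1, minus). Rrm2 holds 1 CCAAT box, Ccnb1 2, and Ube2c 6 with 1 CHR match, while the window of Ung, a uracil-DNA glycosylase gene, holds neither. Of the 36 tested cell cycle members with a promoter in the table, 80.6% held a CCAAT box and 41.7% a CHR match, against 38.6% and 12% of the 10243 tested genes with one. A CCAAT box stood in 25 of 31 called members and in 4 of 5 that were not called. A match is a description and not a site.

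Oxidative phosphorylation was the other pathway list with no lower member in KO. Of 63 oxidative phosphorylation genes 58 were higher and none lower in KO (median 0.56), against 27 and none in WT (median 0.26). By the interaction test 8 had a called larger value in KO, beside 2.16% of all genes. Counted by libraries without overlap, 58 were higher in KO and 50 in WT, beside 19.8% and 17% of all genes. Uqcrfs1, the Rieske protein of complex III, held 166, 187, 166 and 143 CPM in CD11c+ and 85.5, 92.5, 71.7 and 84 CPM in CD206+ KO libraries. The groups did not overlap (log2 fold change 0.99 ± 0.09), and the interaction was 0.63 (adjusted p = 0.00397). Summed levels of the list were 9329 to 10820 CPM in CD11c+ and 6450 to 6946 CPM in CD206+ libraries. Of 29 fatty acid oxidation genes 15 were higher and 1 lower in KO (median 0.30), and 2 were lower without CD11c+ libraries 2 and 3.

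Glycolysis and hypoxia genes were higher for 20 of 34 and lower for 4 (median 0.68), and lower for 2 without CD11c+ library 4 or CD206+ library 1 or 3. Vegfa, a vascular growth factor, held 47.6, 8.74, 12.5 and 32.8 CPM in CD11c+ and 4.86, 4.22, 2.32 and 3.54 CPM in CD206+ libraries (2.77 ± 0.40). Here CD11c+ libraries 1 and 4 were the higher ones, without overlap with CD206+. Slc16a3, a lactate exporter, was at 1.47 ± 0.29. Sterol and fatty acid synthesis genes were higher for 21 of 31 and lower for 2 (median 0.61), against 9 and none in WT (median 0.41). Counted by libraries without overlap, 16 were higher in KO and 15 in WT, beside 19.8% and 17% of all genes. No member had a called interaction, so a difference between genotypes was not shown for them. Fdps, of the mevalonate pathway, was at 1.33 ± 0.25, while Scd1, a fatty acid desaturase, was lower (-1.42 ± 0.42). Without CD206+ library 3, Scd1 was at -1.01 and was not called (adjusted p = 0.0614), and no list member was lower. Without CD11c+ library 1, 3 or 4 or CD206+ library 1, 1 member was lower.

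Of 38 cytokine and cytokine receptor genes 12 were higher and 11 lower in CD11c+ KO cells, near the shares of all genes (23.3% and 22.5%), and 7 lower without CD11c+ libraries 2 and 3. Of 38 NF-kB target and feedback genes 8 were higher and 5 lower, against 23.3% and 22.5% of all genes, and without CD11c+ libraries 2 and 3, 13 were higher and 4 lower. Il1b, interleukin-1 beta, held 604, 520, 393 and 652 CPM in CD11c+ and 185, 262, 107 and 307 CPM in CD206+ libraries. Every CD11c+ library was above every CD206+ library (log2 fold change 1.33 ± 0.31, adjusted p = 0.00102). Il6 was at 1.69 ± 0.37. In WT, Il1b was at 0.22 and Il6 at 0.39 and neither was called, while neither interaction was called (adjusted p = 0.153 and 0.191). Bcl2a1d, an anti-apoptotic gene with near-identical copies, had a called interaction (1.48 ± 0.19 in KO, interaction 0.98, adjusted p = 0.0362).

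Il10, an anti-inflammatory cytokine, was lower, with 20.9, 17.6, 13.4 and 24.1 CPM in CD11c+ and 62.9, 114, 38.7 and 76.3 CPM in CD206+ libraries (-1.94 ± 0.26). Of 23 chemokine ligands 9 were lower and 5 higher, the higher ones close to the 23.3% of all genes. Ccl7, a monocyte attractant, held 139, 138, 150 and 119 CPM against 838, 1220, 634 and 687 CPM (-2.63 ± 0.26). Both genes were without overlap. Interferon response genes were lower for 13 of 50, close to the 22.5% of all genes, and higher for 1, far under the 23.3% of all genes. Their median was -0.26 beside -0.05 for all genes tested. Without CD11c+ libraries 2 and 3, 8 were lower. Without CD11c+ library 1 or 4 or CD206+ library 1, 2 or 3, none was higher. Oas2, an antiviral enzyme, was the furthest lower in KO (-1.98 ± 0.26). In WT on HFD 14 members were lower and none higher (median -0.44), beside 8.7% and 11.7% of all genes.

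MHC class II genes were higher for 8 of 16 and lower for 1, or for 2 without CD206+ library 4. H2-DMb2, a peptide-loading chaperone chain, held 27.6, 60.3, 36 and 26.4 CPM in CD11c+ and 4.18, 1.91, 2.93 and 3 CPM in CD206+ libraries. The groups did not overlap (3.64 ± 0.31), and the interaction was called (1.96, adjusted p = 0.012). Of 42 transcription factors 12 were higher and 13 lower, near the 23.3% and 22.5% of all genes. Id2, an inhibitor of E proteins, held 324, 259, 184 and 194 CPM against 96.9, 87.1, 38.4 and 67.2 CPM (1.73 ± 0.20), and was at 0.17 in WT (interaction 1.56, adjusted p = 0.0016). Bhlhe40, a transcriptional repressor, was at 2.70 ± 0.27 in KO and at 2.19 in WT. Immediate early and dissociation stress genes were lower for 14 of 34 and higher for 2, with Jun at -1.75 ± 0.20. The higher ones numbered 4 without CD11c+ library 3 and 1 without CD11c+ library 4 or CD206+ library 3.

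Markers of several other cell types moved with the populations, and their part in the results was not tested. Of 22 dendritic cell genes 15 were higher and 2 lower in CD11c+ KO cells (median 2.49), against 9 and 2 in WT on HFD (median 0.98). Only 1 of the 22 had a called interaction, near the 4.36% of all genes. Flt3, the growth factor receptor of dendritic cells, held 6.56, 15.4, 21.1 and 16.6 CPM in CD11c+ and 0.541, 0.309, 0.131 and 0.772 CPM in CD206+ libraries (5.07 ± 0.61). Ccl22, a T cell attractant, held 11.5, 43.5, 62.6 and 52.8 CPM against 4.18, 0.876, 2.01 and 4.86 CPM (3.83 ± 0.60). Both genes were without overlap, with CD11c+ library 1 the lowest of its group. The list's lower members, named after their values were seen, were Siglech, a plasmacytoid dendritic cell receptor (-3.37), and Kmo (-0.88), and without CD11c+ library 1 or 4 or CD206+ library 1 or 3, 1 was lower. Cd24a was at 4.36 ± 0.36 and the migration receptor Ccr7 at 3.76 ± 0.49.

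The dendritic cell list summed to 315.9 to 689.5 CPM in CD11c+ and 237.7 to 314.1 CPM in CD206+ libraries, with none of its genes at 0 in a whole group. The monocyte list was higher for 7 of 19 genes, lower for 1 and not called for 11, with sums of 5818 to 10500 CPM against 2370 to 4331 CPM. Fn1, fibronectin, led the list, with 7100, 5040, 3050 and 5280 CPM in CD11c+ and 1150, 793, 509 and 1410 CPM in CD206+ libraries (2.41 ± 0.39). Fn1 alone made up most of each CD11c+ sum, so these sums say little of the other members. S100a4, a calcium-binding protein gene, was at 1.26 ± 0.19 (interaction 0.91, adjusted p = 0.0494).

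Many stromal, adipocyte, endothelial, mesothelial and smooth muscle markers were lower in CD11c+ libraries. Of 22 stromal genes 17 were lower and 1 higher, with sums of 677.2 to 929.7 CPM in CD11c+ and 789.2 to 1000 CPM in CD206+ libraries, which overlapped. Without CD11c+ libraries 2 and 3 the lower ones numbered 7, without library 1 they numbered 11, and without library 2 they numbered 9. Of 16 adipocyte genes 13 were lower and 1 higher (106.1 to 156.2 CPM against 175.3 to 326.1 CPM), with a median log2 fold change of -1.65. In WT on HFD none was called and the median was -0.55. No adipocyte gene had a called interaction, so a difference between genotypes was not shown. The adipocyte gene that was higher, Fasn, the fatty acid synthase, stood at 0.83, and Cidea was at 0 in all CD11c+ libraries. Of 16 endothelial genes 9 were lower and none higher (56.21 to 130.8 CPM against 145.3 to 234.6 CPM), and 4 without CD11c+ libraries 2 and 3, 4 without library 1 and 5 without library 2. Mesothelial and smooth muscle genes were lower for 6 of 12 and higher for none (18.86 to 36.34 CPM against 59.95 to 131.4 CPM), with Cnn1 at 0 in all CD11c+ libraries. In WT on HFD 13 stromal, 3 endothelial and 1 mesothelial or smooth muscle gene were lower, and none of these lists held a higher one. The stromal gene that was higher, Pi16 (2 genes without CD206+ library 3), was at 14, 18.5, 8.05 and 13.1 CPM in CD11c+ and 4.28, 1.85, 1.27 and 2.5 CPM in CD206+ libraries. It had a larger value in KO (2.44 ± 0.38, interaction 3.07, adjusted p = 0.00119).

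T and NK cell genes were higher for 2 and lower for 2 of 20, B and plasma cell genes higher for none and lower for 2 of 11, and mast cell, basophil and eosinophil genes higher for 2 and lower for 2 of 12. Neutrophil genes were higher for 1 of 7 and erythroid and platelet genes for 1 of 4, with none lower in either. Of all genes 23.3% were higher and 22.5% lower, and none of these counts was far above those shares. These small counts moved without single libraries. B and plasma cell genes were lower for 1 without CD11c+ library 1, 2 or 4 or CD206+ library 1, 2 or 3, and higher for 1 without CD206+ library 1. T and NK cell genes were lower for 1 without CD11c+ library 1 or 4 or CD206+ library 3. Mast cell, basophil and eosinophil genes were lower for 1 without CD11c+ library 1 or 4 or CD206+ library 1 or 3, for 4 without CD206+ library 4, and for 7 without CD11c+ libraries 2 and 3. The erythroid call was lost without CD11c+ library 2 or 4 or CD206+ library 1, 3 or 4, and 1 neutrophil gene was lower without CD11c+ library 1. The haemoglobin genes Hbb-bs, Hbb-bt, Hba-a1 and Hba-a2 and the granulocyte genes Mcpt8, Epx, Ear6 and Stfa2l1 were at 0 in all 8 libraries. The macrophage and monocyte lineage list, present throughout at 17230 to 24920 CPM in sum, was higher for 2 and lower for 5 of 12. Csf1r, the receptor that macrophages need to survive, was at -0.56 ± 0.14 and was at 2260 to 4180 CPM in all 8 libraries. Without CD11c+ libraries 2 and 3, lineage members were lower for 2, and without CD11c+ library 2 or 4, 1 was higher.

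Most population differences of WT were also called without A20. In WT on HFD 2746 genes were called (20.4%), 1575 higher (11.7%) and 1171 lower (8.7%) in CD11c+ cells, and the libraries did not overlap for 27.9% of genes. With a replicate block, for which the WT numbers pair the libraries, the lower ones numbered 1815. Of the 1575 higher genes 1253 (79.6%) were also called higher in KO, 307 were not called and 15 were called lower. Of the 1171 lower genes 912 (77.9%) were also called lower in KO, 253 were not called and 6 were called higher. Those 1253 and 912 genes made up 40% and 30.1% of the genes called higher and lower in KO, and together 16.1% of genes tested.

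Among the genes that held, Hr, Dcstamp, Ear2, Ccl22, F7, Vsig8, Itgax and Cd24a were furthest higher in both genotypes, and Lyve1, Cd209g, Cd209f, Fcna, Cxcl13, Ltc4s, Tlr5 and Enpep furthest lower. Itgax encodes an antigen of the sort, so its place there does not bear on what held. In WT the log2 fold change was 3.79 for Dcstamp, 3.51 for Ccl22, -5.55 for Lyve1 and -3.72 for Ltc4s. Vsig8 was at 4.13 ± 0.37 in KO and 3.27 in WT. Of 307 and 253 WT genes not called in KO, 36 and 30 had a called interaction, so for the others a difference between genotypes was not shown.

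More genes were called in KO than in WT on HFD, and the median absolute log2 fold change over all genes tested was 0.388 in KO and 0.25 in WT. With a replicate block 6946 genes were called in KO and 3914 in WT. The WT list counts come from the fit without that block. When each comparison was fitted on its own 8 libraries the gap was narrower, with 5153 genes called in KO and 3458 in WT. Of genes called in KO, 93% of the higher and 89.7% of the lower had the same sign in WT. Across the 13453 genes the log2 fold changes of KO and WT had a Pearson r of 0.713 and a Spearman rho of 0.714, a description over genes that share 1 fit.

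**Figure D4:**
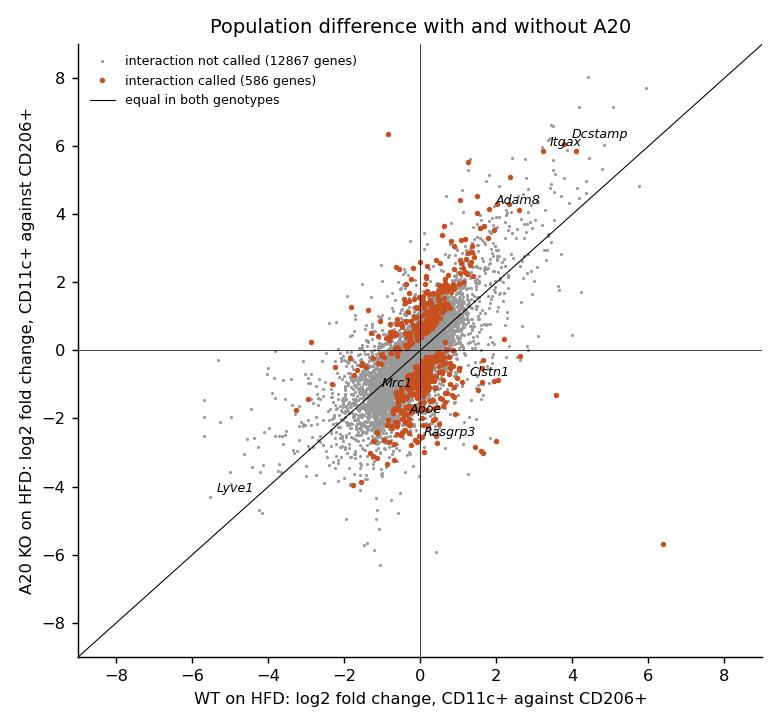
Log2 fold change of CD11c+ over CD206+ for each of the 13453 genes in WT (horizontal) and KO (vertical) on HFD, with the 586 genes whose difference between genotypes was called in orange and a line of equal values. Dcstamp and the sort gene Itgax lie high on both axes and Lyve1 low on both, while Apoe and Rasgrp3 are low in KO and near 0 in WT.

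The difference between the genotypes was itself tested as an interaction, which shares its libraries with both comparisons. It was called for 586 genes (4.36%), 290 with a larger value in KO (2.16%) and 296 with a smaller one (2.2%). With a replicate block these were 641 and 568. Of the 586 genes called without the block, 339 had the same sign in both genotypes and were further from 0 in KO. Another 25 had the same sign and were further from 0 in WT, and 222 had opposite signs. For 213 of the 290 and 273 of the 296 the fitted KO to WT difference was larger in CD11c+ than in CD206+ cells. The median KO to WT log2 difference of the 296 genes was -1.12 in CD11c+ and -0.14 in CD206+ cells. Other-cell markers also differed between the genotypes on HFD. T and NK cell sums were 188.3 to 391.7 CPM over both KO populations and 22.34 to 43.87 CPM over both WT populations. Monocyte sums of CD11c+ libraries were 5818 to 10500 CPM in KO, where most was Fn1 alone, and 2572 to 3690 CPM in WT. Stromal sums of CD206+ libraries were 789.2 to 1000 CPM in KO and 1416 to 4106 CPM in WT. Their part in the interaction was not tested.

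The interaction counts moved with single libraries. The larger ones fell to 164 without KO CD11c+ library 2, 165 without KO CD206+ library 3 and 173 without WT CD11c+ library 1. The smaller ones fell to 189 without KO CD11c+ library 1, 190 without library 2 and 141 without KO CD206+ library 3. They fell to 143, 197 and 183 without WT CD11c+ libraries 1, 2 and 3, and to 194 and 169 without WT CD206+ libraries 2 and 3.

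Adam8, a membrane metalloprotease, was among the clearest. It held 311, 453, 262 and 391 CPM in CD11c+ and 26.9, 17.7, 11.4 and 23.9 CPM in CD206+ KO libraries, and 748, 800, 802 and 960 CPM against 220, 258, 182 and 293 CPM in WT. The populations did not overlap in either genotype, and the log2 fold change was 4.15 ± 0.26 in KO and 1.80 ± 0.23 in WT (interaction 2.35 ± 0.33, adjusted p = 0.000221). Each KO library was below the WT libraries of its population. Slc9a4, a sodium-proton exchanger (3.27 in KO, 1.17 in WT), Chn2, a GTPase-activating protein for Rac (3.20 and 0.80), and Btbd17 (5.09 and 2.36) also had larger values in KO. Mboat1, a lysophospholipid acyltransferase, was at 1.52 ± 0.21 in KO and at -0.44 in WT, where it was not called, and Rassf5, a Ras effector, at 0.30 and -0.27, both called.

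In the other direction, Clstn1, a calsyntenin, was at 10.4, 12.8, 9.33 and 12.3 CPM in CD11c+ and at 24.5, 16.9, 24.4 and 19.1 CPM in CD206+ KO libraries. In WT it was at 97.1, 65.6, 82.7 and 56.8 CPM against 37.9, 40.8, 33.6 and 28.3 CPM. The populations did not overlap in either genotype and stood in opposite order, at -0.92 ± 0.21 in KO and 1.10 ± 0.20 in WT (interaction -2.02 ± 0.29, adjusted p = 0.000221). Dlg3, a scaffold gene, was likewise at -1.08 in KO and 0.89 in WT, both called.

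Rasgrp3, a Ras exchange factor, held 1.72, 5.01, 2.8 and 3.43 CPM in CD11c+ and 21.9, 14.3, 24.8 and 22.8 CPM in CD206+ KO libraries (-2.69 ± 0.29). In WT it held 95.2, 55.2, 60.7 and 52.3 CPM against 101, 62.9, 56.2 and 61.1 CPM (-0.10, not called). KO libraries of both populations were below all WT libraries, and the KO populations did not overlap. The actin bundler Pls3 (-0.99 in KO, 0.14 in WT) and the scramblase gene Plscr4 (-1.81 and -0.23) followed.

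**Figure D5:**
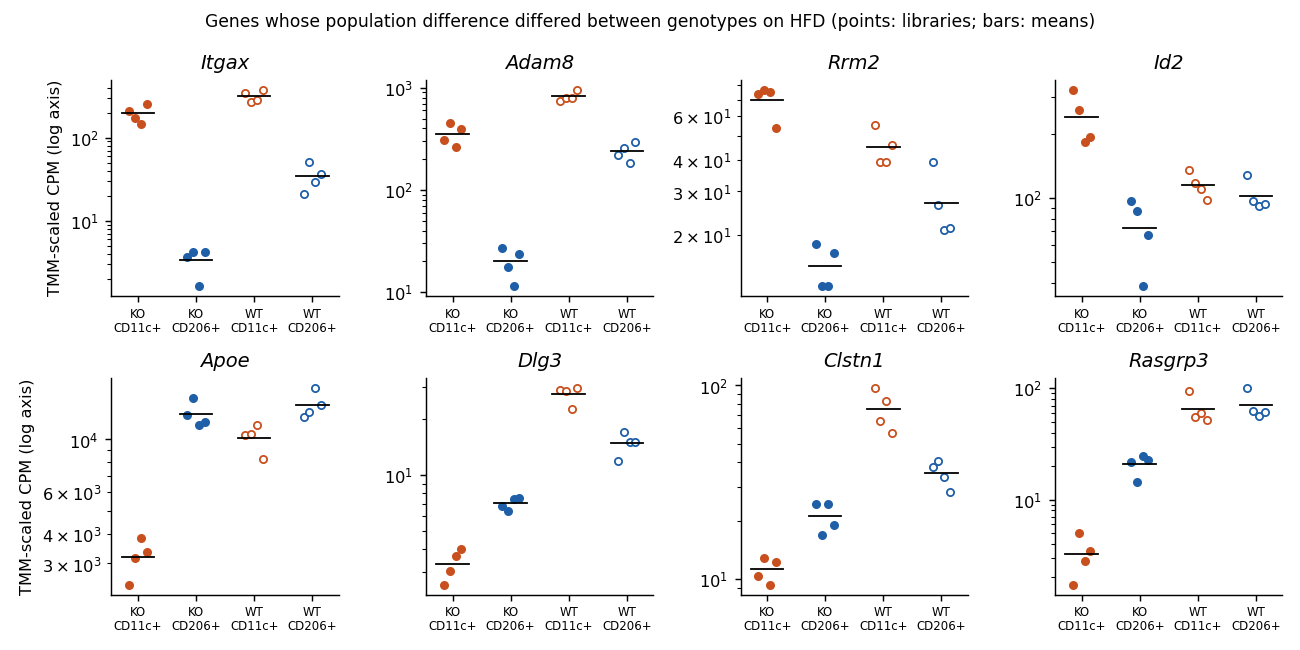
TMM-scaled CPM on log axes of 8 genes with a called interaction, picked after their values were seen, 1 point per library and a bar at the mean, for KO (filled) and WT (open) CD11c+ (orange) and CD206+ (blue) libraries on HFD. Adam8 and Itgax are far lower in KO than WT CD206+ libraries, and Clstn1 is higher in CD11c+ than CD206+ libraries in WT and lower in KO.

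The leading genes of KO on HFD were also far apart in KO on SD. There 6949 genes were called (51.7%), 3440 higher (25.6%) and 3509 lower (26.1%), and the libraries did not overlap for 44.4% of genes. Of the genes called in KO on HFD, 2842 higher (90.6%) and 2517 lower (83%) were called the same way on SD, or 82.6% and 71.7% of those called on SD. The test of the difference between the diets called 0 genes (0%) with edgeR and 0 with DESeq2. An unadjusted p under 0.05 was reached by 406 of 13453 genes, a smaller share than the 0.05 that chance alone would give. The smallest adjusted p was 1 with edgeR and 0.571 with DESeq2. A total of 1195 genes were higher and 864 lower in all 3 comparisons. Lyve1 was at -6.16 and Dcstamp at 7.72 on SD, beside -4.32 and 6.07 on HFD.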

How the data were processed

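Bulk RNA was sequenced from sorted macrophages in 32 libraries, with groups taken from sample titles. TopHat2 2.1.0, SAMtools 0.1.18, Trimmomatic 0.35 and FastQC 0.11.4 are listed, with mm10 and GRCm38 as builds, per the submitters' processing notes. What counted the reads, with which annotation and strand setting, is not given in the sources used here, so overlapping, antisense and multicopy genes are uncertain. The authors deposited whole-number read counts per gene, not normalized, for 24421 genes in each library. A further 5 rows that name no gene stayed out of library sizes and tests. Shares of reads outside genes and of ambiguous reads are over all rows.

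In R 4.3.3 with edgeR 4.0.16, filterByExpr (minimum count 10) kept 13453 genes, with TMM scaling. A quasi-likelihood fit over all 32 libraries with a mean for each of 8 groups was tested by contrasts, with Benjamini-Hochberg adjustment over all genes. Alternatives were RLE scaling, no filter, DESeq2 1.42.0, a replicate block, only the contrast's libraries, adjusted p under 0.01 and leaving out libraries. Same-group libraries differed beyond sampling noise, with chi-squares per degree of freedom of 24.8 to 52.5 in CD11c+ and 21.5 to 43.2 in CD206+ of KO on HFD.

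The libraries of KO on HFD share numbers across populations without deviating together in every pair. In WT on HFD same-numbered libraries correlated at 0.23 to 0.47, and in KO on SD at 0.14 to 0.32, so there the numbers were taken to pair the libraries, from the data and not the labels.

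The libraries compared, the 37 gene lists and the motifs were chosen with earlier results of these data known. Named genes were Tnfaip3, Lyz2, Itgax and Mrc1. Up to 12 genes a direction were named with the largest fold change among called genes with at least 10 CPM in the higher group and no overlap. Up to 4 called members a list with the largest change were named, or 2 where none was called. Up to 6 genes a direction were named from the genotype interaction and 4 from the diet interaction by smallest p, and up to 8 a direction that were called in both genotypes. The interaction and both-genotype genes also needed at least 10 CPM in a group, gene model symbols were not named, and not all of these genes are printed, and some results are not reported here. Any other gene was chosen after its values were seen.

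On simulated counts for the KO comparison on HFD with 200 genes changed in each of 3 draws (13277 to 13287 genes tested), 40.5% of genes changed 1.5-fold, 66.5% at 2-fold and 84.9% at 4-fold were recovered. For genes of at least 1 CPM, a split chosen after the first result was seen, these were 46.8%, 80.1% and 98.1%. Of unchanged genes 0.0535% were called. Far fewer genes changed in these draws than the 45.8% called in the data. The adjusted p threshold depends on that share, so these rates need not hold for the data.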

Additional observations from a re-analysis of the deposited data

Results flagged for a closer look

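The population difference differed between the genotypes on HFD, by the interaction test, for 40 of the reported genes that the naming rule took (adjusted p under 0.05). Part of them were named for the smallest p in that same test. Others were named for a large fold change in KO, which enters the interaction. Their number is therefore set in part by the naming and cannot be weighed against the 4.36% of all genes called. On the log2 scale, KO minus WT, the larger values in KO were Itgax 2.63, Dcstamp 2.29, Hr 1.75, Btbd17 2.73, Slc9a4 2.10, Adam8 2.35, Chn2 2.40, Mboat1 1.96, Rassf5 0.57, H2-DMb2 1.96, Bcl2a1d 0.98 and Fabp5 1.46. Further larger values were Acaa1a 0.51, Uqcrfs1 0.63, Cyc1 0.44, Atp5g3 0.43, Gm2a 0.92, Rrm2 1.48, Ube2c 1.32, Ccna2 1.30, Dusp5 0.91, Id2 1.56, Runx3 1.49, S100a4 0.91, Pi16 3.07 and Ppbp 1.95. The smaller values were Reps2 -1.52, Maoa -1.44, Dnm1 -2.18, Vsig4 -2.29, Pls3 -1.13, Dlg3 -1.97, Clstn1 -2.02, Rasgrp3 -2.59, Plscr4 -1.58, Cdk16 -0.35, S1pr1 -1.52, Stab1 -1.26, Apoe -1.53 and Cyp27a1 -0.92.

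In 410 groups of 4 libraries examined (each named gene and each list sum in the 2 KO populations on HFD), 21 had 1 library far from the other 3 by Dixon's test at its 95% critical value. Chance flags about 1 in 20 such groups. The values in CPM were as follows. CD11c+ library 1 stood apart with Bcl2a1a 15.2, Mertk 84.5 and Nnat 0.5. CD11c+ library 2 stood apart with Btbd17 36, Chn2 47.6 and Ltb4r1 131. CD11c+ library 3 stood apart with Hr 47.8 and Plin4 1.17. CD11c+ library 4 stood apart with Tapbpl 55.5, Havcr2 25.4, Cyc1 134, Ndufa6 47.4 and Rrm2 54.1. CD206+ library 1 stood apart with Slc9a4 3.64 and Ccl17 0. CD206+ library 2 stood apart with Gpnmb 63.5. CD206+ library 3 stood apart with Pparg 15.9. CD206+ library 4 stood apart with Oas2 31.5, Vldlr 3.68, S100a4 114 and Ptprb 17.6.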

How the results depend on the processing

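Named genes kept their direction under the alternatives run, except Btd, which was never called and ranged from -0.05 to 0.10. Of the values, 2465 stayed on the same side of the threshold, 62 lost their call and 4 gained one. Counts over all genes stayed within 1.5 times in 178 cases and moved further in 21, and list counts in 781 and 107. At an adjusted p under 0.01, lower genes in KO on HFD numbered 2002, WT genes 855 higher and 613 lower, interaction genes 66 larger and 80 smaller, and genes called alike in KO and WT 1144. DESeq2 called 448 larger interaction genes. No scaling moved the median of all genes by over 0.1.

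With the replicate block, WT lower genes numbered 1815 and interaction genes 641 larger and 568 smaller, and 6946 genes were called in KO on HFD. There same-numbered libraries correlated at -0.03, -0.05, 0.33 and 0.20, and for 2 of 4 numbers the best partner was the own number, so the KO numbers on HFD were not taken to pair libraries.

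Leaving out 1 library gave 2824 to 3049 higher and 2444 to 2886 lower genes in KO on HFD, 1115 to 1363 and 890 to 1220 in WT, 3115 to 3465 and 3034 to 3459 in KO on SD, 164 to 355 larger and 141 to 345 smaller interaction genes, 1640 to 2155 called alike and 0 in the diet interaction. Without KO CD11c+ libraries 2 and 3, chosen after seeing the data, 1894 genes were called alike and 285 and 313 in the interaction. Depth limits genes under 1 CPM most, where calls rest on few reads.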
